A study of Bos taurus with 8 samples.

Results

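The nuclear-encoded subunits of oxidative phosphorylation were taken as a list of 58 genes and described across granulosa cell pools of dairy cows in severe (BHBH) and mild (BHBL) negative energy balance. Each listed symbol found in the array's probe annotation was kept, which gave 57 of the 58 genes among 15229 symbols on the array. UQCRFS1 was not among the annotated symbols and was not analysed here, and COX4I1 was found under its older symbol COX4. A gene was represented by the probe with the highest mean log2 scanner intensity over the 8 arrays, and all 57 of these probes passed the filter on dim probes. The genes comprised 24 subunits of complex I, 4 of complex II, 6 of complex III, cytochrome c, 10 of complex IV and 12 of complex V.

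Oxidative phosphorylation is carried out in the inner mitochondrial membrane. Complexes I and II pass electrons from NADH and succinate to ubiquinone, complex III passes them to cytochrome c, complex IV passes them to oxygen, and complex V (ATP synthase) uses the proton gradient built along the way to make ATP. Most subunits are encoded in the nucleus and imported, whereas a small core is encoded in mitochondrial DNA. Granulosa cells line the ovarian follicle, convert androgen to oestradiol and support the oocyte, and steroid synthesis itself begins inside mitochondria.

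The cells were granulosa cells aspirated from dominant follicles above 9 mm of Holstein cows on day 60 after calving, 42 h after 1 prostaglandin injection, and all cows shared this treatment. BHBH cows had severe negative energy balance with high blood beta-hydroxybutyrate, and BHBL cows had mild negative energy balance with a low level of it. Each group held 12 cows, whose RNA was joined into 4 pools of 3, so the spread between cows within a pool was not measured. The RNA was linearly amplified, and each BHBH pool was hybridised together with a BHBL pool on 2 arrays with exchanged dyes. BHBH was labelled with Cy5 on every array of slide 289 and with Cy3 on every array of slide 288, so slide and dye orientation cannot be told apart. The labels do not name the pools, and arrays with the same area number on both slides were taken as the same pool pair (1 array labelled area 1.2 as area 1).

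Ratios are on the log2 scale with BHBH on top, are taken from the authors' deposited table and averaged over both dye orientations, and n = 4 pool pairs unless stated. Pool levels are normalised log2 scanner intensities, which were not compared between probes. In RNA of whole cell pools, fewer cells of a type and less RNA per cell cannot be told apart.

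Averaged over the 4 pool pairs, the subunits did not lean towards BHBH or BHBL. The median of their mean ratios was 0.0072, against 0.016 over the 32446 features tested, with 29 subunits higher and 28 lower in BHBH and a range of -0.36 (NDUFS6) to 0.49 (NDUFS4). In limma's moderated test of the mean ratio, 0 of 57 subunits had an adjusted p under 0.05, and neither did any of the features tested (0%). At an unadjusted p under 0.05 there was 1 subunit, COX7B, against 1700 of 32446 features (5.24%), and 2.78% of features were higher in BHBH at that p as COX7B was. Ratios were higher in all 4 pool pairs for 2 subunits, COX7B and CYCS (9.23% of all features), and lower in all 4 for 0 (6.31%). On all 8 arrays 1 subunit, COX7B, was higher (1.72% of features) and 0 were lower (1.6%).

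Within each pool pair, in contrast, most subunits leaned the same way. In pool pair 1, 49 of 57 subunits were lower in BHBH (median -0.34), against 49.3% of all features lower. In pool pair 2, 53 of 57 were higher (median 0.38), against 54.1% of features higher. Pool pair 3 had 45 of 57 lower (median -0.21), against 47.1% of features lower, and pool pair 4 had 50 of 57 higher (median 0.30), against 58.3% of features higher. The medians of all features in these pairs were 0.0038, 0.018, 0.012 and 0.035. The order of signs lower, higher, lower, higher was held by 35 of 57 subunits and by 3705 of 32446 features (11.4%), a pattern described after its values were seen. It is visible as 4 bands of alternating colour in the map of subunits by pool pair.

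**Figure D1:**
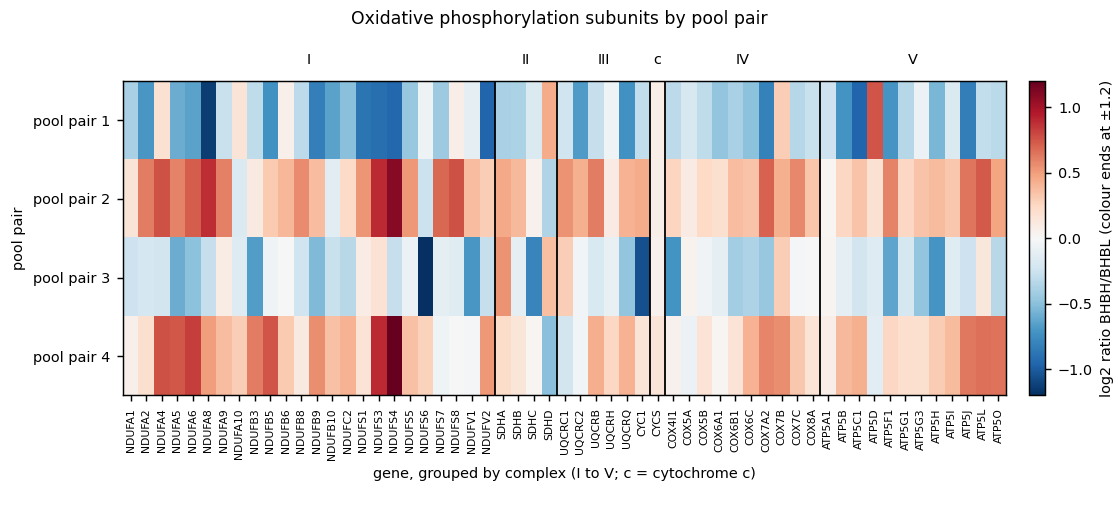
Log2 ratio BHBH over BHBL of each of 57 oxidative phosphorylation subunits (columns, grouped by complex) in the 4 pool pairs (rows), each the mean of 2 dye-swapped arrays; red is higher and blue lower in BHBH. Pairs 1 and 3 are mostly blue (49 and 45 of 57 lower), and pairs 2 and 4 mostly red (53 and 50 of 57 higher).

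In each pair the median subunit ratio had the same sign in both dye orientations. With BHBH in Cy5 on slide 289, the median subunit ratio of areas 1 to 4 was -0.47, 0.33, -0.31 and 0.24. With BHBH in Cy3 on slide 288 it was -0.30, 0.45, -0.095 and 0.34. In pair 3, 49 of 57 subunits were lower in BHBH on slide 289, against 33 lower and 24 higher on slide 288. Across the 57 subunits, which share arrays and are not independent, the ratios of the 2 arrays of a pair correlated at r = 0.70, 0.67, 0.77 and 0.88 in pairs 1 to 4, as the scatter of both orientations shows. Across all features these correlations were 0.65, 0.76, 0.70 and 0.80.

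**Figure D2:**
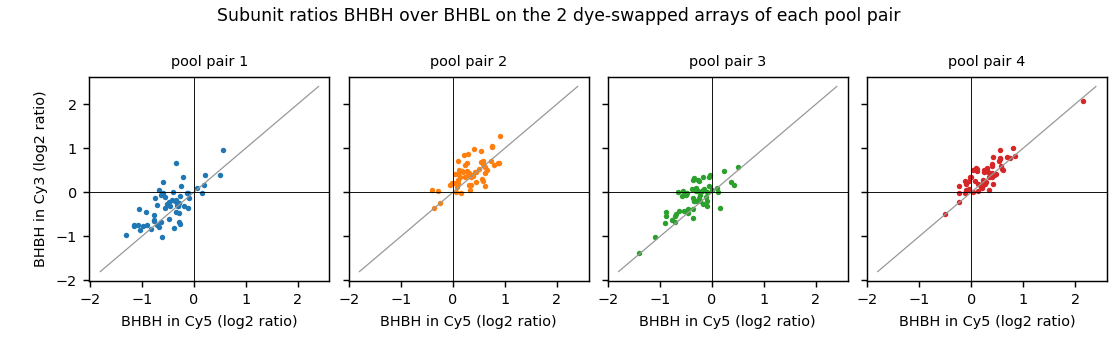
Each point is 1 of 57 subunits: its log2 ratio BHBH over BHBL on the array with BHBH in Cy5 (x axis) and on the array with BHBH in Cy3 (y axis), in a panel per pool pair, with the line of equality in grey. Points of pair 1 lie mainly below 0 on both axes and those of pairs 2 and 4 mainly above 0, with r between 0.67 and 0.88 over the 4 pairs. In pair 3, 49 of 57 lie below 0 with BHBH in Cy5 and 33 of 57 with BHBH in Cy3.

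The differences between pool pairs were tested after they had been seen, with limma's F test on the 8 arrays, in which the error is the disagreement of 2 arrays of the same RNA and so is technical only. By this test 53 of 57 subunits differed between pool pairs at an adjusted p under 0.05, against 17632 features (54.3%). The exceptions were UQCRH, CYCS, COX5A and COX7B. The SD of a subunit's ratio over the pool pairs had a median of 0.44, against 0.20 over all features. The residual SD between arrays was 0.097 for the subunits and 0.098 for all features. Subunits and all features were not matched for probe brightness. A filter on dim probes in both channels on all arrays kept 56 of 57 subunits and 19198 of 32446 features. The part of brightness in these contrasts was not tested. The joint dye and slide term passed an adjusted p of 0.05 in limma for 14 of 57 subunits, against 38.7% of features, and lay between -0.29 and 0.16.

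Pool levels, which compare pools across arrays, differed within both groups. Relative to each probe's mean over the 8 pools, the median subunit level in BHBH pools 1 to 4 was -0.36, 0.014, 0.096 and 0.25, against -0.0047, -0.30, 0.24 and -0.020 in BHBL pools 1 to 4. The lowest median level was in BHBH pool 1, followed by BHBL pool 2. The highest were in BHBH pool 4 and BHBL pool 3, so the levels of the groups overlapped. Across pairs, pool and array area cannot be told apart in these levels. In BHBH pool 1, 12 of 57 subunits were above their own mean, and in BHBL pool 2, 8 of 57 were. In BHBL pool 3, 51 of 57 subunits were above it. The medians of all features stayed between -0.035 and 0.022 in the 8 pools. The plot of pool levels shows BHBH pool 1 and BHBL pool 2 as the lowest in each of the 5 complexes, and complex II was highest in BHBH pool 3 (0.24).

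**Figure D3:**
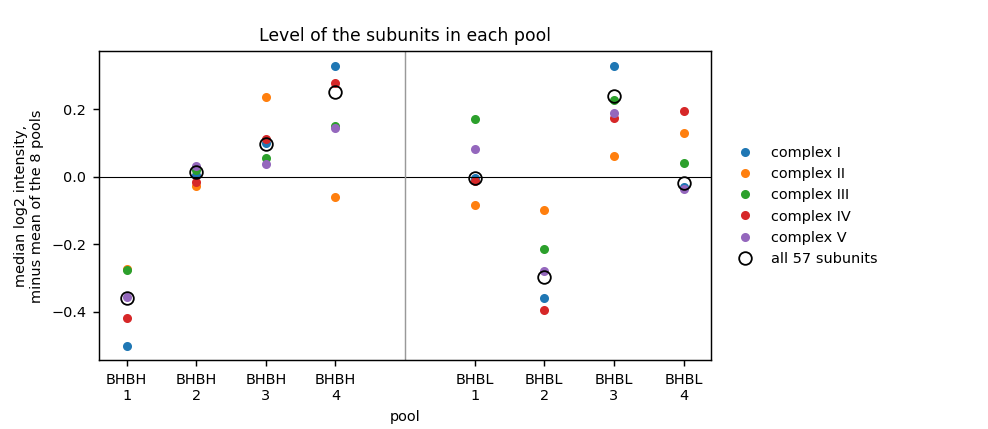
Median log2 scanner intensity of the subunits of each complex (filled points) and of all 57 subunits (open circles) in each BHBH and BHBL pool, relative to each probe's mean over the 8 pools (y axis, log2 units). BHBH pool 1 (-0.36) and BHBL pool 2 (-0.30) are lowest, and BHBH pool 4 (0.25) and BHBL pool 3 (0.24) highest, so the groups overlap. Pools of different pairs were on different arrays, and pool and array area cannot be told apart.

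Complex I, the NADH dehydrogenase, had the widest pair medians of the 5 complexes: -0.48, 0.52, -0.24 and 0.36 in pairs 1 to 4. Of its 24 subunits, 20 were lower in pair 1, 21 higher in pair 2, 21 lower in pair 3 and 22 higher in pair 4. On the mean, 13 were higher and 11 lower in BHBH, and limma's adjusted p was 0.914 or more for each. All 24 differed between pool pairs by the F test with its technical error, as did 54.3% of all features.

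The largest swing belonged to NDUFS4, an accessory subunit of the matrix arm whose loss in humans causes Leigh syndrome. Its level was 13.45, 14.35, 14.71 and 15.22 in BHBH pools 1 to 4, against 14.33, 13.44, 14.89 and 13.26 in BHBL pools. The highest NDUFS4 level was in BHBH pool 4 and the lowest in BHBL pool 4, and the groups overlapped. Its deposited ratios were -0.94, 1.09, -0.28 and 2.11, a mean of 0.49 ± 0.57 (SE, limma adjusted p = 0.943). A further NDUFS4 probe was at -1.15, 1.05, -0.53 and 2.02, so both probes placed the pairs in the same order. NDUFA8, an accessory subunit facing the intermembrane space, was at -1.13, 0.88, -0.28 and 0.50, a mean of -0.0083 ± 0.37 (SE). Its mean was near 0 although pairs 1 and 2 lay far apart.

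Some complex I subunits were above 0 in most pairs on the probe used. NDUFB6, an accessory subunit of the membrane arm, was at 0.063, 0.40, -0.0044 and 0.32 (mean 0.19 ± 0.091 SE). That probe was at -0.22, 0.093, -0.28 and 0.088 with BHBH in Cy5, and at 0.34, 0.70, 0.27 and 0.55 with BHBH in Cy3. A further NDUFB6 probe was at -0.16, 0.53, -0.060 and 0.30, below 0 in pairs 1 and 3. NDUFA4, first described as a complex I subunit and now assigned to cytochrome c oxidase, was at 0.19, 0.77, -0.22 and 0.76 (mean 0.37 ± 0.20 SE). NDUFA9, an accessory subunit where both arms of the complex meet, was at -0.26, 0.61, 0.091 and 0.37 (mean 0.20 ± 0.16 SE). These were the 3 complex I subunits with the smallest unadjusted p, and pair 3 or pair 1 carried each negative ratio. NDUFS6, a zinc-binding accessory subunit named here after its values were seen, had the lowest mean of all 57 subunits, and 1 pair held most of it: its ratios were -0.064, -0.26, -1.40 and 0.28.

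Of the nuclear-encoded core subunits of complex I, 6 were on the list. NDUFV2, with an iron-sulfur cluster, was at -0.95, 0.29, -0.28 and 0.52. NDUFV1, which binds the flavin that accepts electrons from NADH, was at -0.12, 0.37, -0.70 and -0.011. NDUFS1, which also carries iron-sulfur clusters, was at -0.88, 0.53, 0.092 and 0.16. These 3 were lower in pair 1 and higher in pair 2. NDUFS7, with the iron-sulfur cluster next to ubiquinone, was at -0.44, 0.69, -0.11 and -0.053. NDUFS8, with further iron-sulfur clusters, was at 0.077, 0.76, -0.14 and 0.0013. NDUFS3, a core subunit without a redox centre, was at -0.90, 0.90, 0.18 and 0.90. On the probes used, all 6 were higher in pair 2 and all but NDUFS8 were lower in pair 1, while their signs were mixed in pairs 3 and 4. Each further probe of these genes was higher in pair 2 too. In pair 1 the further NDUFS7 probes were at -0.49, 0.0069 and 0.020, and the further NDUFS8 probe was at -0.021. In pair 3 the further NDUFS3 probe was at -0.34. Both further NDUFS1 probes had the signs of the probe used. The group was chosen by role after the values had been seen.

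**Figure D4:**
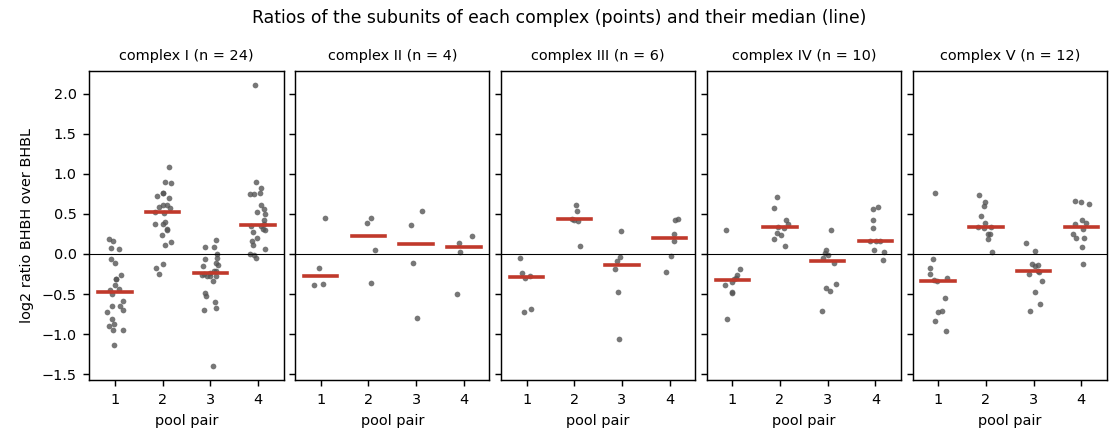
Log2 ratio BHBH over BHBL of each subunit (points) in the 4 pool pairs (x axis), in a panel per complex, with the median as a line. In complexes I, III, IV and V the medians lie below 0 in pairs 1 and 3 and above 0 in pairs 2 and 4, and in complex II the median of pair 3 is 0.12.

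Complex II, succinate dehydrogenase, is shared with the tricarboxylic acid (TCA) cycle and is wholly nuclear-encoded. On the probes used its 4 genes did not move together, with pair medians of -0.27, 0.22, 0.12 and 0.082. The further probe of each gene was lower in pair 1 and higher in pair 2, with mixed signs in pairs 3 and 4. SDHA, the flavoprotein that oxidises succinate, was at -0.39, 0.45, 0.54 and 0.22 (mean 0.21 ± 0.18 SE). SDHB, the iron-sulfur subunit, was at -0.38, 0.39, -0.11 and 0.14 (mean 0.011 ± 0.14 SE). On these probes SDHA and SDHB had like ratios in pairs 1 and 2 and opposite signs in pair 3. A further probe of SDHA was at -0.26, 0.33, -0.050 and -0.26, which shared the sign of the probe used in 2 of 4 pairs. A further probe of SDHB was at -0.36, 0.63, 0.086 and 0.29.

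The membrane anchors of complex II are SDHC and SDHD. SDHC, with the same signs as SDHB, was at -0.17, 0.052, -0.79 and 0.020 (mean -0.22 ± 0.17 SE), and its further probe was at -0.16, 0.055, -0.79 and 0.058. Pair 3 held most of the SDHC difference on both probes. SDHD had levels of 13.17, 12.86, 13.42 and 12.86 in BHBH pools 1 to 4, against 12.49, 13.33, 13.03 and 13.48 in BHBL pools. BHBH was the higher pool in pairs 1 and 3 and the lower in pairs 2 and 4, and the groups overlapped. Its ratios were 0.45, -0.36, 0.36 and -0.50 (mean -0.015 ± 0.21 SE), the reverse of the signs held by most subunits. A further SDHD probe was at -0.23, 0.0082, 0.025 and -0.051, so the reversed signs rest on 1 probe.

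Complex III, which passes electrons from ubiquinol to cytochrome c, had pair medians of -0.29, 0.43, -0.14 and 0.21. All 6 measured subunits were lower in pair 1 and higher in pair 2, 5 were lower in pair 3 and 4 were higher in pair 4. UQCRB, which lies near a ubiquinone site, was at -0.27, 0.61, -0.19 and 0.44 (mean 0.15 ± 0.19 SE). UQCRQ, a small subunit of the same complex, was at -0.73, 0.42, -0.47 and 0.42 (mean -0.091 ± 0.25 SE). UQCRB and UQCRQ followed the order of signs of the whole list. CYC1, the haem-bearing cytochrome of the complex, was at -0.30, 0.44, -1.06 and 0.16 (mean -0.19 ± 0.27 SE), and its further probe was at 0.37, 0.15, 0.36 and 0.10, of the opposite sign in pairs 1 and 3. UQCRH, the hinge protein between this cytochrome and cytochrome c, was at -0.052, 0.099, -0.089 and 0.25 (mean 0.052 ± 0.078 SE). Differences of UQCRH between pool pairs did not pass limma's F test (adjusted p = 0.102). In BHBH its probe exceeded the negative controls on 7 of 8 arrays, and in BHBL on every array.

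CYCS, the soluble cytochrome c that shuttles electrons between complexes III and IV, had the smallest SD over pool pairs of the list (0.045), measured on a probe that was saturated on 2 arrays in BHBH and on 0 in BHBL. The part of saturation in that SD was not tested. Its level was 15.91, 15.81, 15.86 and 15.83 in BHBH pools 1 to 4, against 15.66, 15.69, 15.62 and 15.85 in BHBL pools. All BHBH pools were above BHBL pools 1 to 3, and BHBL pool 4 lay within the BHBH range, so the groups overlapped. Its ratios were 0.078, 0.070, 0.052 and 0.16 (mean 0.089 ± 0.047 SE), with a limma adjusted p of 0.914. The ratios lay between 0.10 and 0.20 with BHBH in Cy5 and between -0.015 and 0.11 with BHBH in Cy3.

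Complex IV, cytochrome c oxidase, had pair medians of -0.33, 0.33, -0.082 and 0.17. In pair 1, 9 of its 10 subunits were lower, and COX7B was the exception. All 10 were higher in pair 2, 7 were lower in pair 3, and 9 were higher in pair 4. COX7A2, an accessory subunit with tissue-specific isoforms, had the largest swing of the complex at -0.81, 0.71, -0.46 and 0.59 (mean 0.0072 ± 0.32 SE), and its further probe was at -0.71, 0.98, -0.35 and 0.81. COX6C, another accessory subunit, was at -0.49, 0.34, -0.37 and 0.42 (mean -0.027 ± 0.20 SE). COX7C was at -0.34, 0.57, -0.013 and 0.32 (mean 0.13 ± 0.17 SE), and COX4I1, which joins the catalytic core early in assembly, was at -0.31, 0.26, -0.72 and 0.050 (mean -0.18 ± 0.18 SE). All of these shared the signs lower, higher, lower, higher.

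COX7B, an accessory subunit needed for assembly of the complex, was the 1 subunit that was higher in BHBH in every pair and on every array. Its level was 9.74, 9.09, 9.06 and 9.09 in BHBH pools 1 to 4, against 9.41, 8.67, 8.76 and 8.65 in BHBL pools. Within each pair the BHBH pool was higher. The BHBL pool of pair 1 was above the BHBH pools of the other pairs, so the levels of the groups overlapped. That overlap compares different arrays, whereas the ratios compare pools on the same array. The ratios were 0.30, 0.43, 0.30 and 0.56, a mean of 0.40 ± 0.067 (SE), or 1.32-fold higher in BHBH. The unadjusted p of limma's test was 0.0031 and its adjusted p over all features was 0.891, so the difference did not pass the test. On slide 289 the mean was 0.43 and on slide 288 it was 0.36. In a fit that counts the 8 arrays as if independent, COX7B had a limma adjusted p of 0.0381, and with the pool pair as a random block it was 0.286. In that blocked fit 48 of all features passed (0.148%) and 0 of 57 subunits did. In the fit that counts the arrays as independent, 261 of 32446 features passed.

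COX5A and COX6A1 had several probes each. COX5A, which helps regulate the oxidase, was at -0.19, 0.094, 0.047 and -0.073, and differences between pool pairs on that probe did not pass limma's F test (adjusted p = 0.115). Its 3 further probes were at -0.75, 0.26, 0.063 and -0.32, at -0.054, 0.28, 0.071 and -0.19, and at 0.017, 0.29, 0.061 and -0.16. The COX5A probes had the same signs in pairs 2, 3 and 4, and the size in pair 1 depended on the probe. COX6A1 was at -0.48, 0.19, -0.12 and 0.024 on its brightest probe, which was saturated on 3 arrays in BHBH and 5 in BHBL. Its 2 further probes were at -1.35, 0.79, -0.58 and 0.34 and at -1.30, 1.03, -0.58 and 0.60. All 3 COX6A1 probes had the same sign in every pair, and the further ones gave the larger ratios. Both genes were chosen after their values had been seen.

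Complex V, ATP synthase, had pair medians of -0.34, 0.34, -0.21 and 0.34. Of its 12 subunits, 9 held the signs lower, higher, lower, higher (11.4% of all features). In pair 1, 11 subunits were lower, in pair 2 all 12 were higher, in pair 3, 10 were lower, and in pair 4, 11 were higher. All 12 differed between pool pairs by that F test (54.3% of all features). In the catalytic part, ATP5D, the delta subunit of the rotor, was at 0.76, 0.18, -0.15 and -0.13 (mean 0.17 ± 0.18 SE). It was the complex V subunit that was higher in pair 1 and lower in pair 4. The beta subunit ATP5B, which holds the catalytic sites, was at -0.72, 0.25, -0.12 and 0.39, and the gamma subunit ATP5C1, the central shaft, was at -0.96, 0.34, -0.22 and 0.43. ATP5B and ATP5C1, chosen after their values had been seen, followed the order of signs of the list.

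In the stalk and membrane part of ATP synthase the same order of signs held for most named subunits. ATP5F1, the peripheral stalk subunit b, was at -0.71, 0.60, -0.63 and 0.25 (mean -0.12 ± 0.27 SE). ATP5J, a coupling factor of the same stalk, was at -0.83, 0.65, -0.25 and 0.63 (mean 0.049 ± 0.30 SE). ATP5I, the small subunit e of the membrane part, was at -0.18, 0.33, -0.14 and 0.38 (mean 0.096 ± 0.13 SE). These 3 had the signs lower, higher, lower, higher, and the stalk subunits swung more widely than ATP5I. ATP5L, the small subunit g, had the largest mean of complex V, 0.31 ± 0.20 (SE), from ratios of -0.30, 0.73, 0.14 and 0.66.

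ATP5G1 and ATP5G3 encode precursors of the same mature protein, subunit c of the proton-driven ring. ATP5G1 was at -0.34, 0.25, -0.21 and 0.20 (mean -0.025 ± 0.13 SE). ATP5G3 was at -0.066, 0.34, -0.47 and 0.20 (mean -0.00053 ± 0.15 SE). Both genes had the same sign in every pair. Further ATP5G1 probes were at -0.44, 0.73, -0.53 and 0.46 and at -0.68, 0.60, -0.74 and 0.15. The 3 ATP5G1 probes had the same signs, and the further ones gave larger ratios than the probe with the highest intensity in most pairs.

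Further probes were present for 25 of the subunits, 34 probes in all, and each passed the filter. Of these, 20 had the sign of the probe used in all 4 pairs, 7 in 3 pairs, 6 in 2 pairs and 1 in 1 pair. Their medians were -0.29, 0.40, -0.090 and 0.22 in pairs 1 to 4, with 27 of 34 lower in pair 1, 33 higher in pair 2, 22 lower in pair 3 and 27 higher in pair 4.

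Correlations between pool pairs were also computed across the 57 subunits, which share arrays. Ratios of pairs 2 and 4 correlated at r = 0.53, against 0.29 across all features. Those of pairs 1 and 2 correlated at -0.44, against -0.16, and those of pairs 1 and 4 at -0.46, against -0.42. Pair 3 had correlations of 0.14, 0.11 and -0.12 with pairs 1, 2 and 4, against 0.18, 0.43 and -0.016 across all features. Pairs 1 and 3 thus had most subunits lower in BHBH, while the sizes of their ratios correlated weakly.

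Other genes of the respiratory chain had pair medians of the same signs as the listed subunits. A list of further nuclear-encoded genes of the complexes held 27 genes, of which 24 were tested. It was not limited to structural subunits, and held ATP5S and ATPIF1, whose current symbols are DMAC2L and ATP5IF1. Its pair medians were -0.50, 0.46, -0.33 and 0.36, with 22 lower in pair 1, 21 higher in pair 2, 18 lower in pair 3 and 21 higher in pair 4. On the mean 12 were higher and 12 lower in BHBH, and 0 passed limma's test at an adjusted p under 0.05. At an unadjusted p under 0.05 there was 1 higher, ATP5E (0.23 ± 0.084 SE), the epsilon subunit of ATP synthase, and 1 lower, COX8B. Symbols of the subunits encoded in mitochondrial DNA were found for 0 of the 26 names searched, and those subunits were not analysed here.

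Among genes that serve the same organelle, assembly factors, import and carrier genes and TCA cycle enzymes had pair medians of these signs too. In pair 3 this was less clear for assembly factors and TCA cycle enzymes. Assembly factors (30 tested) had pair medians of -0.18, 0.28, -0.073 and 0.24. The signs lower, higher, lower, higher were held by 13 of 30, against 11.4% of all features. Import and carrier genes (14 tested) had medians of -0.37, 0.44, -0.26 and 0.20, and 7 of 14 held them. TCA cycle enzymes (10 tested) had medians of -0.51, 0.32, -0.053 and 0.32, and 4 of 10 held them. In pair 3, 16 of 30 assembly factors, 10 of 14 import and carrier genes and 6 of 10 TCA cycle enzymes were lower, against 47.1% of all features. None of these 3 lists had a gene at an adjusted p under 0.05 in limma, and 1 gene in all, SDHAF1 (0.28 ± 0.068 SE), an assembly factor of complex II, had an unadjusted p under 0.05. The next assembly factor by p was NDUFAF1 (0.19 ± 0.073 SE), which acts on complex I. Among TCA cycle enzymes, citrate synthase (CS) was at 0.13 ± 0.078 and OGDH, of the oxoglutarate dehydrogenase complex, at 0.14 ± 0.084 (SE). The import receptors TOMM20 and TOMM22 were at -0.27 ± 0.11 and 0.21 ± 0.13 (SE).

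The medians of cytosolic ribosomal protein genes, whose products translate these subunits, did not show the pair signs. The 18 tested had pair medians of -0.017, -0.0078, -0.013 and 0.012. Single genes ranged from -0.81 to 0.34 in pair 1 and from -1.10 to 0.21 in pair 2. They ranged from -1.15 to 0.30 in pair 3 and from -0.33 to 0.34 in pair 4. The signs lower, higher, lower, higher were held by 3 of 18 (11.4% of all features). RPL32 was at 0.20 ± 0.067 and RPS27 at 0.13 ± 0.058 (SE), with a limma adjusted p of 0.914 for each. Probes of RPL7, RPLP0, RPS2, RPS3 and RPS6 were saturated on some arrays. The contrast between the lists appears in the plot of list medians.

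**Figure D5:**
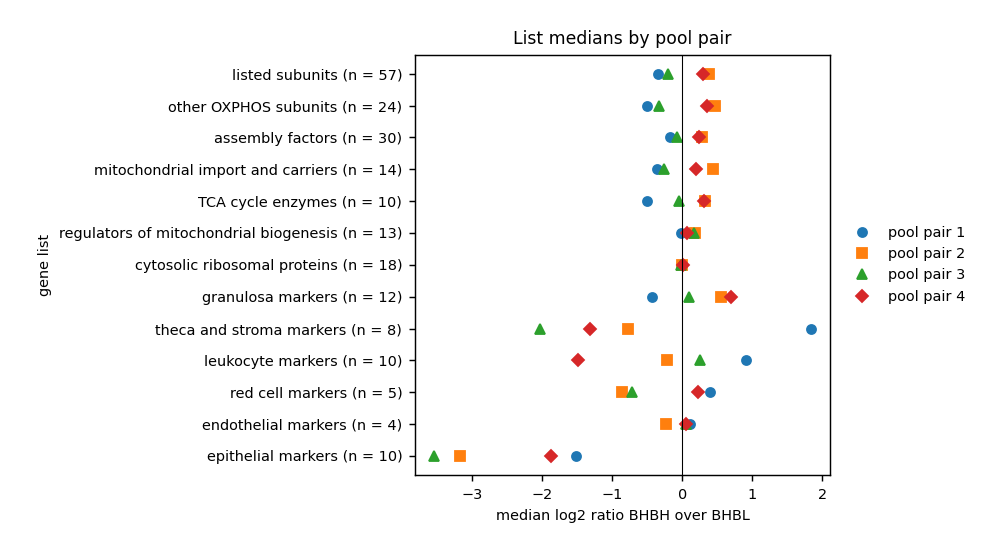
Median log2 ratio BHBH over BHBL (x axis) of the listed subunits and of 12 other gene lists (rows) in the 4 pool pairs (symbols). Listed subunits, the further respiratory chain genes (labelled other OXPHOS subunits), import and TCA genes lie below 0 in pairs 1 and 3 and above 0 in pairs 2 and 4. The ribosomal medians stay between -0.017 and 0.012, and the epithelial medians are below 0 in all 4 pairs.

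Markers of granulosa and of other cells of a follicle aspirate differed between pool pairs too, and their part in the ratios of the subunits was not tested. All 12 granulosa markers were above the negative controls on at least 7 of 8 arrays in each group, and INHA and INHBA were saturated on 6 and 7 arrays in BHBH and on 6 and 4 in BHBL. Their pair medians were -0.44, 0.56, 0.091 and 0.70, with the sign of the subunit median in pairs 1, 2 and 4. The median granulosa marker level, relative to each probe's mean, was -0.13 to 0.21 in BHBH pools and -0.48 to 0.29 in BHBL pools. FSHR, the receptor for follicle-stimulating hormone, was at -1.52, 1.23, -0.47 and 2.04, and CYP19A1, aromatase, was at -1.45, 0.66, -1.41 and 1.22. FOXL2, a granulosa transcription factor, was at -0.29, 0.46, 0.11 and 0.43. FSHR and CYP19A1 held the signs lower, higher, lower, higher, which 4 of the 12 granulosa markers did (11.4% of all features). GATM, of creatine synthesis, was at 1.60, -1.95, 0.97 and -1.89, and the nuclear receptor NR5A2 was at 0.36, -0.85, 0.56 and -0.53. Both of these, named after their values were seen, had the reverse signs in every pair. ESR2, the granulosa oestrogen receptor, and LHCGR, the luteinising hormone receptor, had means of 0.24 ± 0.13 and 0.53 ± 0.35 (SE).

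Markers of other cell types followed other orders. Theca and stroma markers (8 tested) had pair medians of 1.84, -0.77, -2.03 and -1.31, and their median level ranged from -1.38 to 1.65 in BHBH pools and from -0.41 to 1.45 in BHBL pools. The fibrillar collagen COL3A1 was at 3.74, -1.44, -3.39 and -4.51, and COL1A2 was at 3.60, -0.52, -2.71 and -4.74, both named after their values were seen. The stromal proteoglycan LUM was at -1.19, -1.03, -2.57 and -0.059, against its list in pair 1, where 6 of 8 were higher. INSL3, a theca hormone, had a mean of 0.22 ± 0.098 (SE). Leukocyte markers (10 tested) had medians of 0.91, -0.22, 0.25 and -1.49, with CD14 of monocytes at 2.84, 1.51, 1.24 and -3.01. CD79A of B cells exceeded the negative controls on 2 arrays in BHBH and 3 in BHBL. The leukocyte median level ranged from -1.30 to 0.31 in BHBH pools and from -0.79 to 0.79 in BHBL pools. S100A8 and S100A9, calcium-binding proteins of neutrophils, had means of -2.35 ± 0.77 and -2.26 ± 0.75 (SE).

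Red cell markers (5 tested) had medians of 0.39, -0.87, -0.72 and 0.23, with haemoglobin beta (HBB) at 4.08, -4.87, -3.65 and 0.57. ALAS2 and AHSP, of haem and globin synthesis, had means of -0.23 ± 0.28 and 0.10 ± 0.093 (SE). The red cell median level ranged from -0.53 to 0.19 in BHBH pools and from -0.48 to 0.92 in BHBL pools. Endothelial markers (4 tested) had medians of 0.10, -0.24, 0.046 and 0.050, PECAM1 did not pass the filter, and CDH5 and VWF had means of 0.052 ± 0.052 and -0.066 ± 0.089 (SE). The endothelial median level ranged from -0.052 to 0.057 in BHBH pools and from -0.10 to 0.21 in BHBL pools.

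Epithelial markers (10 tested) were lower in BHBH in pairs 2, 3 and 4 for all 10 and in pair 1 for 6, with pair medians of -1.52, -3.18, -3.55 and -1.88. Their median level ranged from -2.21 to -0.33 in BHBH pools and from -0.26 to 2.02 in BHBL pools, so these medians did not overlap. The nearest were BHBH pool 4 (-0.33) and BHBL pool 1 (-0.26), which lay close together and were on different arrays. KRT7, a keratin of simple epithelia, was at -2.32, -2.90, -3.47 and -1.18. WFDC2 and AGR2, secretory epithelial proteins, had means of -2.39 ± 0.15 and -2.87 ± 0.34 (SE). CDH1, the epithelial cadherin, exceeded the negative controls on 3 arrays in BHBH and 7 in BHBL. In limma 0 of the 10 passed at an adjusted p under 0.05, and 7 had an unadjusted p under 0.05 (5.24% of all features). This list was chosen with that difference known from the same arrays, and its direction did not alternate between the pairs as that of the subunits did.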

How the data were processed

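RNA of 4 BHBH and 4 BHBL pools was compared on 8 arrays of 2 colours. The authors' deposited series values are log2 ratios. Their direction, BHBH on top for either slide, was found by comparison with the scanner values (r = 0.941 to 0.960 across probes, array medians -0.014 to 0.040). The submitters' processing notes name limma without a version. For background correction and normalisation of those ratios, the method was not given in the sources used here. Per the file headers, the scanner files the authors deposited hold the foreground and background intensity of each spot for both dyes.

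Of 45212 spots, 1418 were controls. Probes brighter than the mean plus 2 SD of 153 negative controls, for either dye and on 4 or more of 8 arrays, were kept (37884 of 43794). One probe per symbol and probes without a symbol gave 32446 features. Arrays with the same area number were averaged, and the 4 means were tested against 0 with limma 3.58.1 (lmFit, eBayes; R 4.3.3; packages jsonlite 2.0.0 and data.table, version 1.17.8), with Benjamini-Hochberg adjustment over all features. Pool levels came from median intensities after normexp (offset 50), loess within and Aquantile between arrays. After removal of slide means, arrays of the same area correlated at 0.88 to 0.93 and those of different areas at -0.56 to -0.036. That removal by itself lowers correlations between different areas. Without it, same-area arrays correlated at 0.65 to 0.80 across all features, against -0.27 to 0.50 for different areas of a slide. With slide means removed, 8 of 8 arrays matched their own area best, which is the basis of the pairing. Precision of the mean ratio is limited by the number of pool pairs (4), because both arrays of a pair hold the same RNA. The p-values of the mean ratio measure the spread between pool pairs, whereas those of the F test between pool pairs rest on technical error.

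Named were COX7B (same sign on all 8 arrays), in complexes I, III, IV and V the 3 subunits of smallest p and 2 of largest SD, all of complex II, CYCS, ATP5G1 and ATP5G3, and of each other list the 2 genes of smallest p plus fixed markers. The members and lists were chosen with earlier results of these data known. The F test between pool pairs and the removal of saturated subunits were later additions, made with the values in view. Scripts were tested on simulated data. No sequences or coordinates are given.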

Additional observations from a re-analysis of the deposited data

How the results depend on the processing

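The number of subunits at an adjusted p under 0.05 in limma was 0 under each alternative except the fit of 8 arrays without the replicate block. There it was 1 (COX7B, 0.40), beside 261 of 32446 features. It was 0 with any pool pair left out. With the area number as a replicate block the count was 0, 48 of all features passed (0 of them subunits) and COX7B had a limma adjusted p of 0.286. The number at an unadjusted p under 0.05 was 2 of 57 with the replicate block (2316 of 32446 features) and 4 without it (4562 features). It was 2 from scanner intensities with normexp and loess (1655 features) and 2 without background correction (1628 features). On slide 288 alone it was 4 (7467 features). With a pool pair left out it was 1 to 4 (954 to 3009 features), the 4 being without pair 1 (3009 features). The number of subunits with 1 sign in all pairs was 1 with median-centred scanner ratios, 1 without saturated subunits, 4 on slide 289 alone and 5 on slide 288 alone. COX7B kept its sign and had the smallest p of the subunits in every setting run (adjusted p 0.0381 to 0.999997 in limma). Pair medians of all subunits ranged from -0.59 to -0.29 in pair 1, 0.30 to 0.52 in pair 2, -0.38 to -0.095 in pair 3 and 0.12 to 0.34 in pair 4. Of 283 alternative medians, 272 kept their sign, and the exceptions included complex IV in pair 3 (up to 0.0047) and complex II in pair 4 (down to -0.065). The number of subunits lower in pair 3 was 33 to 51 across settings, and the 33 came from slide 288 alone. The median of the mean ratios was -0.12 to 0.15 with a pool pair left out. Mean ratios of these subunits changed sign. With the mean of all probes NDUFA8 was at 0.024, CYC1 at 0.028 and ATP5F1 at 0.0039. With arrays scaled NDUFA8 was at 0.046, and with array weights at 0.085. With pairs centred SDHB was at -0.0067 and COX7A2 at -0.010. COX7A2 was at -0.060 with normexp and loess, -0.061 without background correction and -0.074 with median centring. On slide 288 alone NDUFA8 was at 0.11, COX7A2 at -0.051, SDHB at -0.15, SDHD at 0.0064 and ATP5G3 at 0.0053. On slide 289 alone NDUFB6 was at -0.078, UQCRH at -0.025, COX7C at -0.14, COX6C at 0.060, ATP5I at -0.12, ATP5J at -0.047 and ATP5G1 at 0.030. With 1 pool pair left out in turn, means ranged from -0.045 to 0.97 for NDUFS4, -0.31 to 0.37 for NDUFA8, -0.0073 to 0.29 for UQCRB, -0.40 to 0.10 for CYC1, -0.014 to 0.10 for UQCRH, -0.26 to 0.12 for UQCRQ, -0.012 to 0.29 for COX7C, -0.23 to 0.28 for COX7A2, -0.18 to 0.13 for COX6C, -0.031 to 0.27 for ATP5D, -0.15 to 0.34 for ATP5J, -0.36 to 0.071 for ATP5F1, -0.11 to 0.14 for SDHB, -0.17 to 0.15 for SDHD, -0.12 to 0.081 for ATP5G1 and -0.11 to 0.16 for ATP5G3. Without a change of sign they ranged from 0.067 to 0.36 for NDUFA9, 0.095 to 0.40 for SDHA, -0.31 to -0.032 for SDHC and -0.32 to -0.00074 for COX4I1. Causes of these changes were not tested, other than that leaving out a pair or slide removes its own ratios. The 4 pools of 3 cows per group and saturation of the brightest probes limit what these arrays can show.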

Other observations

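Respiratory chain subunits with muscle-type isoforms were measured beside the common ones. COX8B, in cattle the heart and muscle isoform of a small cytochrome c oxidase subunit, was at -0.57, -0.69, -1.26 and -0.67 in pool pairs 1 to 4. Its mean was -0.80 ± 0.14 (SE), and it was lower in BHBH on all 8 arrays (1.6% of all features). The size differed by dye orientation. COX8B was at -0.92, -0.95, -1.41 and -0.84 with BHBH in Cy5, and at -0.22, -0.43, -1.11 and -0.51 with BHBH in Cy3. Its limma adjusted p was 0.891, so the difference did not pass the test. COX7A1, the heart and muscle isoform of another subunit, was at -1.09, 0.28, -0.35 and 0.14, lower in 2 pairs and higher in 2. COX8A, the common isoform, was at -0.26, 0.33, 0.0060 and 0.17. The probe of COX6A2, another muscle isoform, exceeded the negative controls on 0 arrays in either group.

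Regulators of mitochondrial biogenesis (13 tested) did not show the alternating signs of the subunits, with pair medians of -0.014, 0.18, 0.16 and 0.065. The signs lower, higher, lower, higher were held by 2 of 13 (11.4% of all features). POLG, the mitochondrial DNA polymerase, was at 0.59, 0.50, 0.23 and 0.11, a mean of 0.36 ± 0.10 (SE). It was higher in BHBH on all 8 arrays (1.72% of all features), with a limma adjusted p of 0.914. GABPB1, a subunit of a transcription factor of respiratory chain genes, was at -1.13, -0.28, -0.23 and 0.16. TFAM, which packages mitochondrial DNA, exceeded the negative controls in BHBH on 4 arrays and in BHBL on 6.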
